A study of Mus musculus with 4 samples.

Results

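The respiratory chain and ATP synthase genes of mouse liver were followed through acetylation of histone H3 at lysine 27 (H3K27ac), which marks promoters and enhancers in use, after 70% hepatectomy and after sham operation. Members were all gene names in either deposited region table that begin with Nduf, Sdha to Sdhd, Sdhaf, Uqcr, Uqcc, Cox followed by a digit, or Atp5. The rule found 54 names among 10925 gene names with a listed transcription start site (TSS). By complex they were 22 names of complex I, 2 of complex II, 4 of complex III, 11 of complex IV and 15 of ATP synthase (complex V). RefSeq classed 51 of them as protein-coding and 3 (Ndufa12-ps, Ndufs6b and Uqcrh-ps1) as pseudogenes. The same table holds 112 protein-coding names that fit the rule. For the other 61 neither table lists a TSS, and nothing can be said of their promoters. They include the catalytic complex II subunits Sdha and Sdhb and the complex I core subunits Ndufs1 and Ndufs3.

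The 4 libraries were made by CUT&Tag, in which a transposase brought to the mark by an antibody cuts and tags nearby DNA. The PHx 12 h group is liver of wild-type C57/BL6J mice 12 h after removal of 70% of the organ, and the sham group is liver of wild-type C57/BL6J mice after a mock operation. Each group had 2 libraries, and the labels do not say which animals they came from. Time after surgery is labelled as not applicable in sham, and the series design speaks of 0 h and 12 h, so the sham group may be a 0 h group. Hepatectomy, time since surgery and time of day therefore cannot be told apart.

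The deposited data are 1 merged region list per group (build GRCm39), in which every region holds at least 1 peak of each library, with no signal, score or read count. The PHx 12 h list had 10170 regions covering 196907801 bp, and the sham list had 11602 regions covering 121521705 bp. No depth, no value per library and no replicate error can therefore be given, no test over samples was possible, and all comparisons below are descriptions of these 2 lists. As markers of cell makeup, the promoters of Alb, Apoa1, Ttr and Hnf4a (hepatocyte) had a region in both lists, and those of Pecam1, Cdh5, Erg and Lyve1 (endothelial) in PHx 12 h only. Of the Kupffer cell and stellate cell markers, 3 of 5 were in both lists and 2 in PHx 12 h only, and the muscle and heart genes Myh6, Myh7, Actn2 and Ckm had no listed TSS. Over all protein-coding names with a listed TSS, 15.4% were in PHx 12 h only. The part of these marker differences in the results below was not tested, and in whole liver a change in cell numbers and a change of the mark per cell cannot be told apart.

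Complexes I to IV of the inner mitochondrial membrane pass electrons from NADH and succinate to oxygen and, complex II aside, pump protons. ATP synthase uses the proton gradient to make ATP. Most subunits are encoded in the nucleus and a few core ones in mitochondrial DNA. Their nuclear promoters are often rich in CpG and known for binding NRF1, the ETS factor GABP, YY1 and the oestrogen-related receptors. The liver depends on oxidative phosphorylation for gluconeogenesis and urea synthesis.

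The promoters shown here are those of 4 members with a region in 1 list only, a pair from each list, and of Sdhd, whose region hardly differed in width between the lists. They run 5′ to 3′ from 250 bases before to 50 after the RefSeq start, on GRCm38.p6, a build older than that of the regions. Capitals mark words searched on both strands: GCGCANGCG for NRF1, CCGGAAGT for ETS factors, AAGATGGCG for YY1, GGGCGG for SP/KLF and TCAAGGTCA for ERR.
In PHx 12 h only:
Atp5k, chr5:108434350-108434649, minus strand: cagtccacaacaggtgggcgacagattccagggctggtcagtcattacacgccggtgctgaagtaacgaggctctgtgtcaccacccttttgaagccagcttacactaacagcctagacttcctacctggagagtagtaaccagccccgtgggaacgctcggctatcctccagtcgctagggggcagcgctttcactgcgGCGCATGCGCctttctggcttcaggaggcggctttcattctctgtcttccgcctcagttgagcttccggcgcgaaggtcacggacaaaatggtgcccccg
Ndufb4, chr16:37654319-37654618, minus strand: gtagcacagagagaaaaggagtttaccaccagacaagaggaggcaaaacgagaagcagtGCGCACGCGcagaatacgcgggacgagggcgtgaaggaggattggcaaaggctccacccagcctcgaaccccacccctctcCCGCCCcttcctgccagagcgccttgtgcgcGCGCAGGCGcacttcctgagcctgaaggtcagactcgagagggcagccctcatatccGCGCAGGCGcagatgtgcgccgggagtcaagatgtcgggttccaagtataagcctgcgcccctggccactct
In sham only:
Atp5o, chr16:91931581-91931880, minus strand: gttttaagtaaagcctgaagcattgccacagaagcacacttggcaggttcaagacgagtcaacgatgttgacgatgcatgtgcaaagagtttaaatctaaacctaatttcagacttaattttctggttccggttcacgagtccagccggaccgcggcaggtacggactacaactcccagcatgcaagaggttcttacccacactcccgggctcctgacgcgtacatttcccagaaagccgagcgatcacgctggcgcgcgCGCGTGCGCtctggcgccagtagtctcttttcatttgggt
Cox5b, chr1:36691237-36691536, plus strand: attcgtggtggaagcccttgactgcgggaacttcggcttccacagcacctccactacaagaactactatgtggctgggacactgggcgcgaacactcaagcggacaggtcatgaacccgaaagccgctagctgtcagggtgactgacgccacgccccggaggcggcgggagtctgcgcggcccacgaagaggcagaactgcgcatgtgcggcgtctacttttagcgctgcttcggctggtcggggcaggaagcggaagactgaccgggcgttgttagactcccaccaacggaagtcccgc
In both lists:
Sdhd, chr9:50603800-50604099, minus strand: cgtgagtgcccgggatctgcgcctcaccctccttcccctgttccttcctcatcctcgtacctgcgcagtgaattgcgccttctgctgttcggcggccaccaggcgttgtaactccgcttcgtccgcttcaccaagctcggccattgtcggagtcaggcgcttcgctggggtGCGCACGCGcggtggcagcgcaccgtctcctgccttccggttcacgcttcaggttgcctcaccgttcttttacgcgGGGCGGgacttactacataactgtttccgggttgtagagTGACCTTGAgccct

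Of the 54 members, 42 had sequences in the RefSeq table, with 45 promoters in all. The NRF1 word was found in 13 of the 45 promoters (28.9%), against 8.58% of 21263 promoters of protein-coding genes and 12.1% of 5026 promoters of protein-coding genes marked in both lists. Atp5k carried 2 overlapping matches on opposite strands, since the word is nearly its own reverse complement, and Ndufb4 carried 3 separate ones. The YY1 word was in 4 of the 45 (8.89%, against 1.83% of protein-coding promoters and 2.53% of those marked in both lists). The ETS word was in 4 (8.89%, against 5.15% and 6.35% in the same sets) and the ERR word in 2 (4.44%, against 0.334% and 0.338%). The SP/KLF word was in 19 (42.2%), against 46.2% of protein-coding promoters and 63.8% of those marked in both lists. In Sdhd and Atp5g3 NRF1 and ERR words stood in the same promoter. Cox5b held none of the 5 words, which says only that these letters are not in this window. The median ratio of observed to expected CpG was 0.808 in member promoters, 0.567 in protein-coding promoters and 0.749 in those marked in both lists. A protein-coding neighbour started head to head within 1 kb in 14 of the 45 member promoters (31.1%), against 7.97% of protein-coding promoters and 10.05% of those marked in both lists. Among these 13 genes were Atp5j, which faces Gabpa, the gene of the DNA-binding GABP subunit, and Sdhd, which faces Timm8b, a mitochondrial import chaperone.

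Most members with a listed TSS had a region at the promoter in both lists. A name is listed only where a region was assigned to it, so the counts do not extend to the 61 unlisted genes of the family. A gene is called marked here when a region overlapped its TSS ± 1 kb, the TSS being the most upstream start listed in either table. By this count 42 members were marked in both lists, 3 in PHx 12 h only, 7 in sham only and 2 in neither. PHx 12 h regions thus marked 45 of the 54 (83.3%, exact 95% interval 70.7 to 92.1%, counting error only), beside 76.9% of all gene names and 81.4% of the 7090 protein-coding names. Sham regions marked 49 of the 54 (90.7%, interval 79.7 to 96.9%), beside 67.3% of all names and 75.8% of protein-coding names. In PHx 12 h only were 5.56% of members (interval 1.16 to 15.4%), against 17.8% of all names and 15.4% of protein-coding names. In sham only were 13.0% (interval 5.37 to 24.9%), against 8.19% of all names and 9.79% of protein-coding names. Members in sham only outnumbered those in PHx 12 h only, while for protein-coding names as a whole the order was the other way, with 1091 in PHx 12 h only and 694 in sham only. A gene inside a region named for a neighbour is listed only if some other region carries its name. Of the members, 51 were named in sham and 38 in PHx 12 h. Genes in PHx 12 h only may therefore have been lost more often than genes in sham only. Protein-coding names as a whole are under the same rule, and the size of the loss was not tested. The order among members is therefore not read as a trait of the family. It also turned when regions under 5000 bp were left out, which gave 12 members in PHx 12 h only and 7 in sham only. That turn is largely built in, because sham regions are the narrower and fall below the limit more often. With the limit 44 members stayed marked in PHx 12 h and 39 in sham. Without genes in stretches where the other list may hold unlisted peaks, 0 and 2 were left. The 2 were Cox4i2 and Ndufa4l2, and Ndufa4l2 had a PHx 12 h region over its other listed start. This count was not made over all protein-coding genes.

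**Figure D1:**
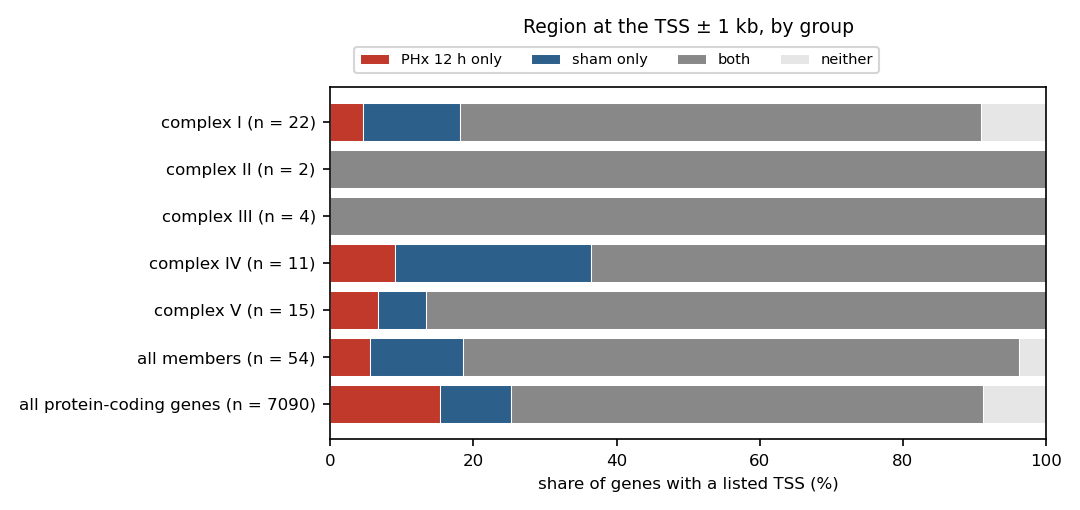
Share of genes (x axis, %) with a region at the TSS ± 1 kb in PHx 12 h only, sham only, both lists or neither, for each complex, all 54 members and all 7090 protein-coding genes with a listed TSS. All 6 names of complexes II and III were marked in both lists, beside 66.0% of all protein-coding genes with a listed TSS. The members in 1 list only belonged to complexes I, IV and V.

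Where a member was marked in both lists, its region was mostly wider after hepatectomy. This held for 39 of 42 members (92.9%), beside 91.5% of all names and 91.4% of protein-coding names marked in both, so the share of members stood near that of other genes. The regions at members had a median width of 13861 bp (quartiles 10891 and 25772 bp, n = 45) in PHx 12 h and of 7073 bp (quartiles 5256 and 10971 bp, n = 49) in sham. Over protein-coding genes the medians were 16122 bp in PHx 12 h and 8097 bp in sham, so member regions were the narrower in both lists. The median ratio of the 42, PHx 12 h over sham, was 1.97 (quartiles 1.35 and 3.02), against 1.72 (quartiles 1.24 and 2.71) over 4682 protein-coding genes. The lowest ratio of a member was 0.851, at Atp5g3, and the highest was 9.64, at the pseudogene Uqcrh-ps1, followed by 8.24 at Ndufaf8.

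**Figure D2:**
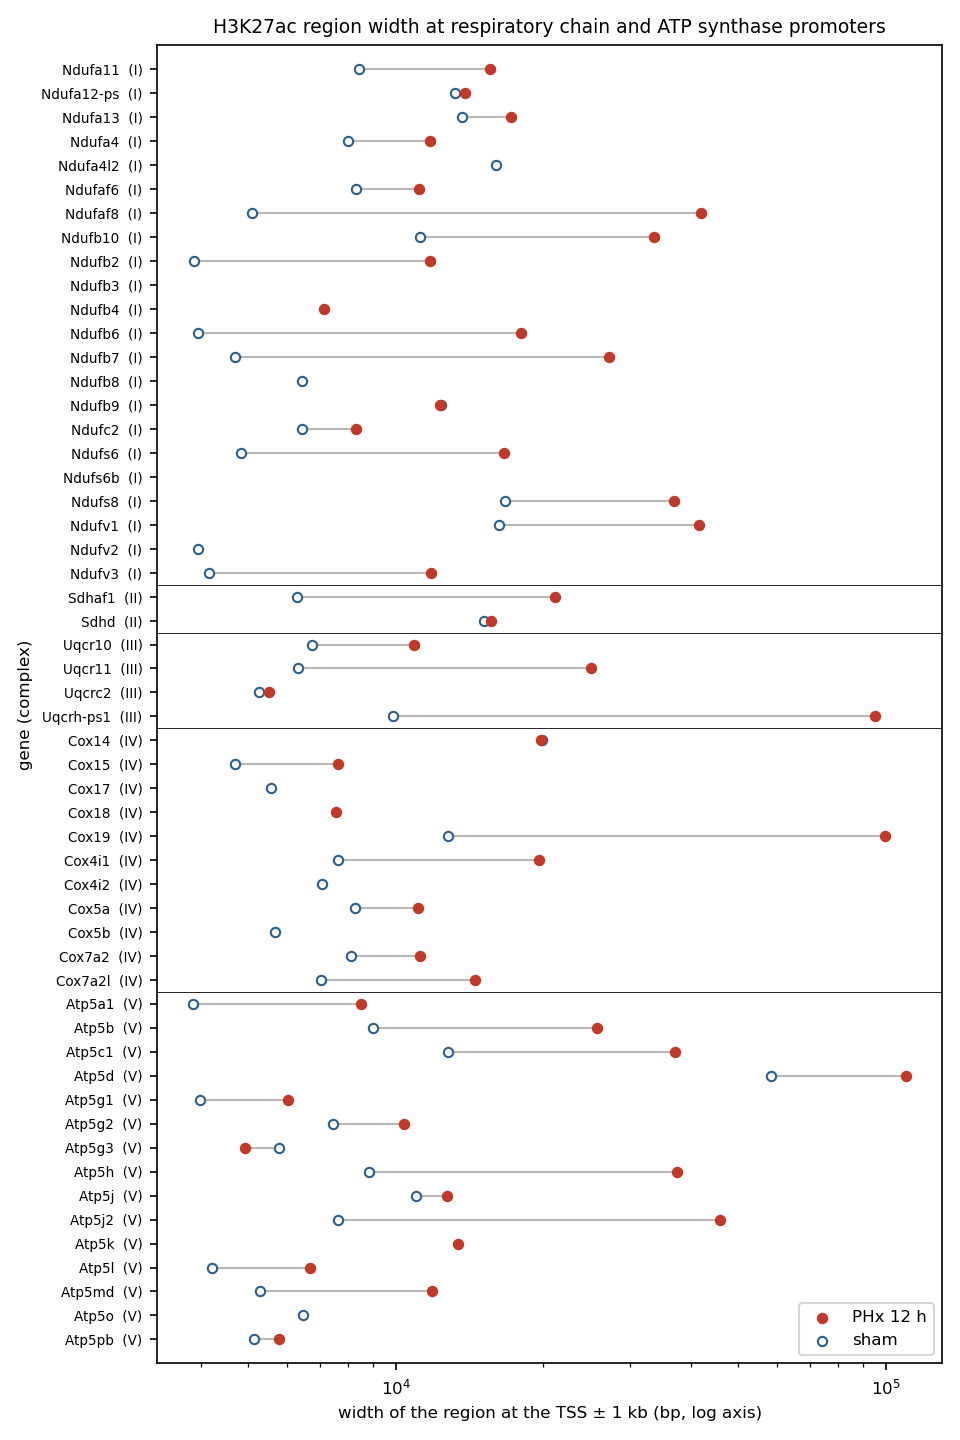
Width of the region at the TSS ± 1 kb (x axis, bp, log scale) of each of the 54 members, grouped by complex, in PHx 12 h (filled) and sham (open), 1 merged list per group. Joined points are members marked in both lists, of which 39 were wider in PHx 12 h, and the lines without a point are Ndufb3 and Ndufs6b.

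Complex I, the NADH dehydrogenase, had 22 names, of which 16 were marked in both lists, 1 in PHx 12 h only, 3 in sham only and 2 in neither, with a median width ratio of 2.38. Among its core subunits, Ndufv1, which binds the flavin that accepts electrons from NADH, had a region of 41479 bp in PHx 12 h and of 16233 bp in sham. Ndufs8, an iron-sulphur subunit, had 36982 bp in PHx 12 h and 16721 bp in sham. Ndufv2, the partner of Ndufv1, was marked in sham only, by a region of 3947 bp (chr17:66405654-66409600), and the nearest PHx 12 h region lay 213220 bp from its TSS. So of 3 core subunits with a listed TSS, 2 had wider regions after hepatectomy and 1 had none.

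The accessory subunits of complex I differed widely among themselves. Ndufb6 had 18024 bp in PHx 12 h and 3948 bp in sham, a ratio of 4.57. Ndufb7 had 27209 bp in PHx 12 h and 4704 bp in sham, a ratio of 5.78. Ndufb9 stood at the other end, with 12279 bp in PHx 12 h and 12376 bp in sham, with gains of 119 bp at the upstream edge and -216 bp at the downstream edge. Ndufa13, known also as a regulator of cell death, had 17168 bp in PHx 12 h and 13628 bp in sham, a ratio of 1.26. Ndufa12-ps, a pseudogene whose regions began downstream of the TSS but within the window, had 13861 bp in PHx 12 h and 13222 bp in sham. The remaining accessory subunits marked in both lists, Ndufc2, Ndufa11, Ndufv3, Ndufb10, Ndufb2 and Ndufs6, were all wider in PHx 12 h, with ratios from 1.29 at Ndufc2 to 3.45 at Ndufs6.

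The single complex I member in PHx 12 h only was Ndufb4, an accessory subunit of the membrane arm, with a region of 7125 bp (chr16:37469766-37476890). The nearest sham region, named for Hgd, lay 60235 bp away. Ndufb8, also of the membrane arm, was in sham only, with 6444 bp (chr19:44539660-44546103) and the nearest PHx 12 h region 130507 bp away at Scd1. Ndufa4l2, a paralogue of Ndufa4 known to be induced by hypoxia, counted as sham only because its most upstream listed start lay 1170 bp from the edge of a PHx 12 h region of 14465 bp. That PHx 12 h region covered the other listed start of the gene, and the sham region of 16010 bp covered both, so the gene had a region in each list. Ndufa4 itself, named for complex I and now assigned to complex IV, had 11733 bp in PHx 12 h and 7992 bp in sham.

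Ndufb3 and Ndufs6b were marked in neither list. Ndufb3 was named for an intergenic region downstream of the gene, 20205 bp from the TSS in PHx 12 h (10854 bp wide) and 21693 bp in sham (3916 bp wide). Ndufs6b was named for a sham region of 12768 bp that ended 2798 bp upstream of its TSS. The assembly factors Ndufaf6 and Ndufaf8 were marked in both. Ndufaf6 had 11163 bp in PHx 12 h and 8293 bp in sham, a ratio of 1.35. Ndufaf8 had 41858 bp in PHx 12 h and 5081 bp in sham, the largest ratio of a protein-coding member.

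All members of complexes II and III were marked in both lists, the pseudogene Uqcrh-ps1 (95186 bp in PHx 12 h and 9872 bp in sham) included. Over all protein-coding names with a listed TSS the share marked in both was 66.0%. Only 2 of 8 protein-coding RefSeq names of complex II and 3 of 11 of complex III had a listed TSS. With so few names the count is not read as a trait of these complexes. Sdhd, a membrane anchor of succinate dehydrogenase, had 15612 bp in PHx 12 h and 15136 bp in sham, a ratio of 1.03. Sdhaf1, which helps to insert the iron-sulphur clusters of complex II, had 21085 bp in PHx 12 h and 6273 bp in sham, a ratio of 3.36. In complex III, the core subunit Uqcrc2 had 5521 bp in PHx 12 h and 5256 bp in sham, which was the smallest relative difference there (1.05). The small subunits had larger ones, with 10891 bp in PHx 12 h and 6751 bp in sham at Uqcr10, and 24973 bp in PHx 12 h and 6320 bp in sham at Uqcr11. Uqcr10 also gave its name to a PHx 12 h region of 9535 bp over an exon of its neighbour Ascc2, 23214 bp from the TSS.

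Complex IV, cytochrome c oxidase, had 7 of its 11 members marked in both lists, 1 in PHx 12 h only and 3 in sham only, with a median ratio of 1.63. Of the isoform pairs, Cox4i1, the form found in most tissues, had 19598 bp in PHx 12 h and 7617 bp in sham, a ratio of 2.57. Cox4i2, the form known from lung and hypoxia, was in sham only, with 7073 bp (chr2:152594873-152601945). The nearest PHx 12 h region, 8705 bp from the Cox4i2 TSS, was named for Id1 and measured 23416 bp, and no peak number of either PHx 12 h library was unaccounted for in between. Cox7a2, the liver form of subunit VIIa, had 11208 bp in PHx 12 h and 8091 bp in sham, a ratio of 1.39. The muscle and testis forms Cox6a2, Cox6b2, Cox7a1, Cox7b2, Cox8b and Cox8c had no listed TSS, nor had Cox6a1, Cox6b1, Cox7b and Cox8a, the forms known from liver.

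Subunits Va and Vb of complex IV, which sit side by side in the enzyme, differed. Cox5a had 11111 bp in PHx 12 h and 8234 bp in sham. Cox5b was in sham only, with 5663 bp (chr1:36727954-36733616), and the nearest PHx 12 h region lay 81157 bp away at Ankrd23. Cox7a2l, a factor that joins complexes III and IV into supercomplexes, had 14481 bp in PHx 12 h and 7021 bp in sham, a ratio of 2.06. Among the assembly factors, the copper chaperone Cox17 was in sham only (5566 bp, chr16:38166552-38172117) and Cox18, which inserts Cox2 into the membrane, in PHx 12 h only (7541 bp, chr5:90368117-90375657). The nearest region of the other list was 44543 bp from the Cox17 TSS and 138561 bp from that of Cox18. Cox14, an assembly factor, had 19790 bp in PHx 12 h and 19855 bp in sham. Cox15, needed for haem A synthesis, had 7635 bp in PHx 12 h and 4684 bp in sham, and Cox19, a copper transfer protein, 99656 bp in PHx 12 h and 12783 bp in sham.

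ATP synthase was the most completely listed complex, with 15 of 17 RefSeq names, and 13 of the 15 were marked in both lists. In the catalytic F1 head, Atp5a1 (subunit alpha) had 8477 bp in PHx 12 h and 3851 bp in sham, the narrowest sham region of the family. Atp5b (beta) had 25772 bp in PHx 12 h and 8960 bp in sham, and Atp5c1 (gamma) 37169 bp in PHx 12 h and 12805 bp in sham. Atp5d (delta) lay in the widest region of a member in either list, 110111 bp in PHx 12 h and 58419 bp in sham. The 4 ratios ran from 1.88 to 2.90. Atp5o, the stalk subunit OSCP that joins head and membrane part, was in sham only, with 6459 bp (chr16:91724048-91730506) and the nearest PHx 12 h region 61427 bp away.

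The membrane part and stalk of ATP synthase held both extremes of the complex. The 3 genes for the identical subunit c of the rotor did not move alike. Atp5g3 had 4913 bp in PHx 12 h and 5772 bp in sham, so it was the narrower in PHx 12 h and the narrowest PHx 12 h region of the family. Atp5g1 had 6029 bp in PHx 12 h and 3984 bp in sham (ratio 1.51), and Atp5g2 10400 bp in PHx 12 h and 7445 bp in sham (1.40). Atp5j2 (subunit f) had 45804 bp in PHx 12 h and 7617 bp in sham, a ratio of 6.01, and Atp5h (subunit d) 37392 bp in PHx 12 h and 8815 bp in sham, a ratio of 4.24. Atp5pb (subunit b) and Atp5j (factor 6) stayed close to equal, at 1.13 and 1.16, while Atp5l (subunit g) reached 1.59 and Atp5md, a small subunit known from the dimer interface, 2.25. Atp5k (subunit e) was in PHx 12 h only, with 13403 bp (chr5:108574271-108587673), and the nearest sham region, named for Mfsd7a, lay 9855 bp from its TSS.

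Absence from a merged list does not show that neither library had a peak there. Peak numbers run in genomic order within a library, so a number missing between neighbouring regions may stand for a peak that was not merged. Around all 3 members in PHx 12 h only, at least 1 number of a sham library was missing. Around the 7 in sham only, the stretches of Atp5o, Cox17, Cox5b, Ndufb8 and Ndufv2 had at least 1 missing number of a PHx 12 h library, with 4 of library 2 at Ndufv2, and those of Cox4i2 and Ndufa4l2 had 0. The regions had a median width of 7541 bp for the 3 members in PHx 12 h only, beside 13403 bp over all 1091 such protein-coding genes. For the 7 in sham only the median was 6444 bp (range 3947 bp at Ndufv2 to 16010 bp at Ndufa4l2), beside 5618 bp over 694 such genes.

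Where a PHx 12 h region spanned several sham regions the ratio was larger, which is largely built in. The ratio divides by the member's own sham region only, while the PHx 12 h region also spans neighbouring sham regions and the gaps between. In 27 of 42 members the region of each list overlapped exactly 1 region of the other, and their median ratio was 1.40 (quartiles 1.14 and 1.96). In the other 15 the PHx 12 h region overlapped 2 to 4 sham regions, and their median ratio was 3.95 (quartiles 2.89 and 5.90). Protein-coding genes split the same way, with 1.44 over 3256 genes and 3.10 over 1426. In the 15, a median of 24.9% of the PHx 12 h region (range 9.65 to 62.9%) was covered by no sham region. At Ndufb7 only 2627 of 27209 bp were uncovered, because the PHx 12 h region joined the sham region of Ndufb7 (4704 bp) to one of 24754 bp named for D830024N08Rik. At Cox19, 18285 of 99656 bp were uncovered, and the sham region of 3110082I17Rik alone measured 62624 bp. Ndufaf8 differed, with 26345 of 41858 bp uncovered beside the sham regions of Ndufaf8 and its neighbour Cep131. Atp5j2 likewise had 23815 of 45804 bp uncovered.

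**Figure D3:**
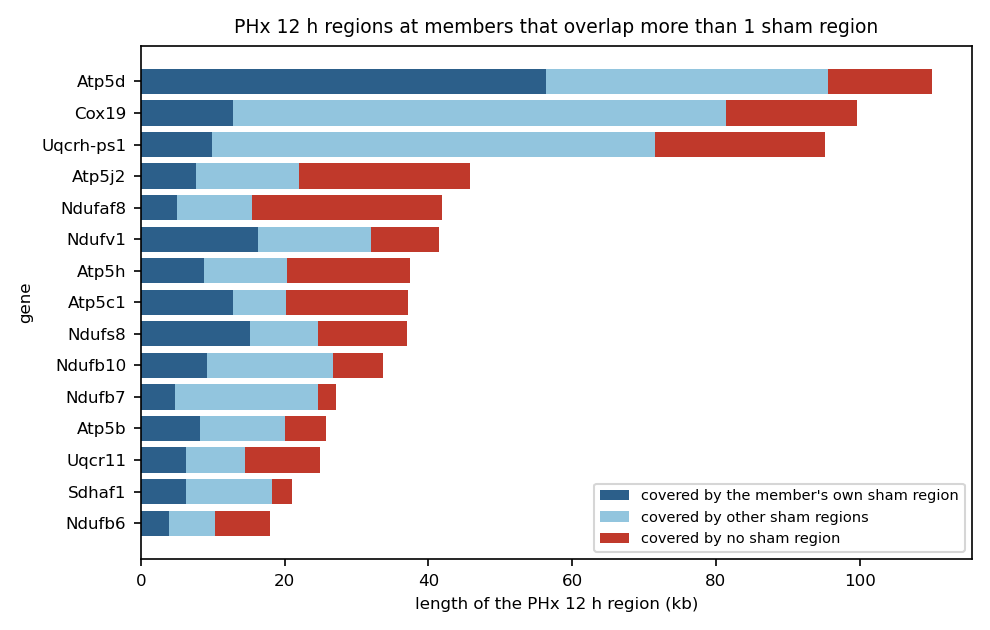
Length (x axis, kb) of the PHx 12 h region at the 15 members where it overlapped more than 1 sham region, split into the length covered by the member's own sham region, by other sham regions and by none. At Cox19 and Uqcrh-ps1 other sham regions took the greater part, and at Ndufaf8 and Atp5j2 the uncovered part did.

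The authors' naming of regions also differed between the lists. In the authors' gene assignment 51 members were named in the sham table and 38 in the PHx 12 h table. The TSSs of 9 members with a sham region of their own name lay in a PHx 12 h region named for another gene: Cox19 (3110082I17Rik), Ndufaf8 (Cep131), Ndufb7 (D830024N08Rik), Ndufb10 (Msrb1), Ndufs6 (Mrpl36), Ndufv1 (Acy3), Sdhaf1 (Alkbh6), Uqcr11 (Gm30823) and Uqcrh-ps1 (Gm17057). These 9 PHx 12 h regions had a median width of 33626 bp and a median ratio of 3.95, against 11861 bp and 1.59 in the 33 that kept the member's name. Regions named for another gene reach that gene as well, so their larger ratio is in part built in too. Counting only regions named for the member gave 3 in PHx 12 h only and 16 in sham only, and those 9 are the difference from the count by position. Mrpl36, which gave its name to the PHx 12 h region over Ndufs6, is itself a gene of the mitochondrial ribosome. No region of either list held the TSS windows of 2 members.

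**Figure D4:**
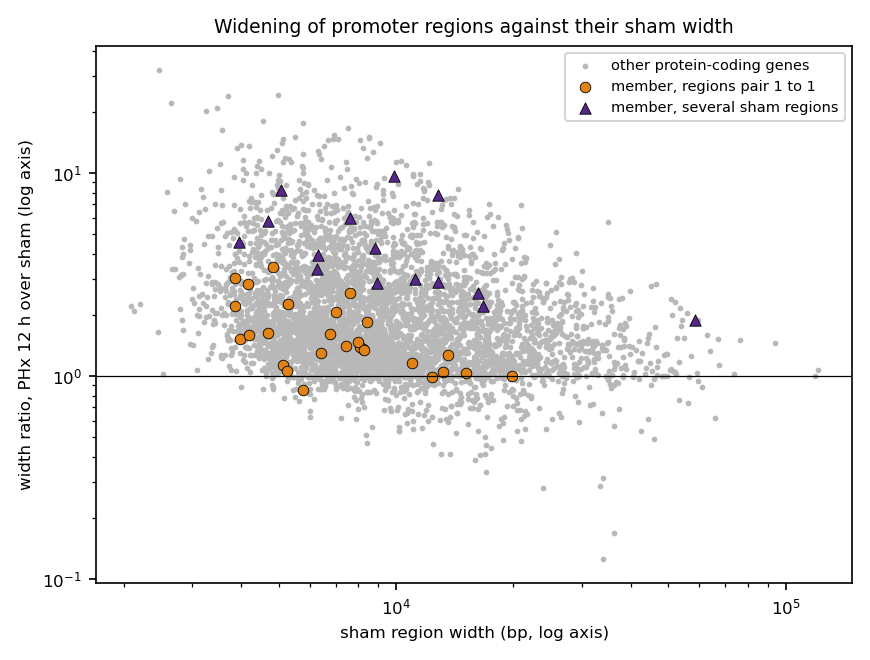
Width ratio, PHx 12 h over sham (y axis, log scale), against the sham width (x axis, bp, log scale) for members (circles where regions paired 1 to 1, triangles where the PHx 12 h region overlapped several sham regions) and for other protein-coding genes (grey) marked in both lists. Of the members 3 lie below a ratio of 1, and the triangles lie at 1.88 or above.

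To set members beside genes of like sham width, the protein-coding genes marked in both lists were put into 4 classes of equal size by that width, and the 42 members, 2 pseudogenes included, were placed in the same classes. The sham width is also the denominator of the ratio, so a trend of the ratio across classes is built in and is not read here. In the narrowest class, up to 6035 bp, the 14 members had a median ratio of 2.23 and all 1171 genes one of 2.10. In the next class, up to 8674 bp, it was 1.61 for 13 members and 1.77 for 1170 genes. The wider classes gave 2.90 for 9 members, with 1.64 for all genes, and 1.57 for 6 members, with 1.41 for all genes. Joined regions were not separated in these classes. Among the 9, the PHx 12 h regions at Atp5b, Atp5c1, Atp5h, Cox19, Ndufb10 and Uqcrh-ps1 spanned several sham regions, so their larger ratios are largely built in. Atp5j, Ndufa12-ps and Ndufb9, which paired 1 to 1, had ratios of 1.16, 1.05 and 0.992. The 2.90 is therefore not read as more widening in members.

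After hepatectomy the region covered the whole listed gene in most members. The PHx 12 h region covered it from end to end in 26 of 42 (61.9%, interval 45.6 to 76.4%), the sham region in 16 (38.1%, interval 23.6 to 54.4%). The listed gene had a median length of 7130 bp among the 42; the part of gene length in these shares was not tested. Over protein-coding genes marked in both lists the shares were 26.8% in PHx 12 h and 14.5% in sham. From the TSS, regions reached a median of 4457 bp upstream and 8904 bp downstream in PHx 12 h, and 2576 bp upstream and 4081 bp downstream in sham. The upstream edge lay farther out in PHx 12 h in 34 of 42 members and the downstream edge in 33, and the sham region lay wholly inside the PHx 12 h region in 26. Over protein-coding genes the upstream edge lay farther out in 81.0% and the downstream edge in 85.3%. The share with the sham region wholly inside was not computed over protein-coding genes, so the 26 members are a description only. Ndufa11 was shifted rather than widened on both sides, gaining 12708 bp upstream, while its downstream reach decreased by 5572 bp, to 1916 bp from the TSS in PHx 12 h, against 7488 bp in sham. Atp5d, Ndufaf8 and Cox19 gained mainly upstream, and Ndufv1, Ndufs8, Atp5b and Sdhaf1 almost wholly downstream.

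**Figure D5:**
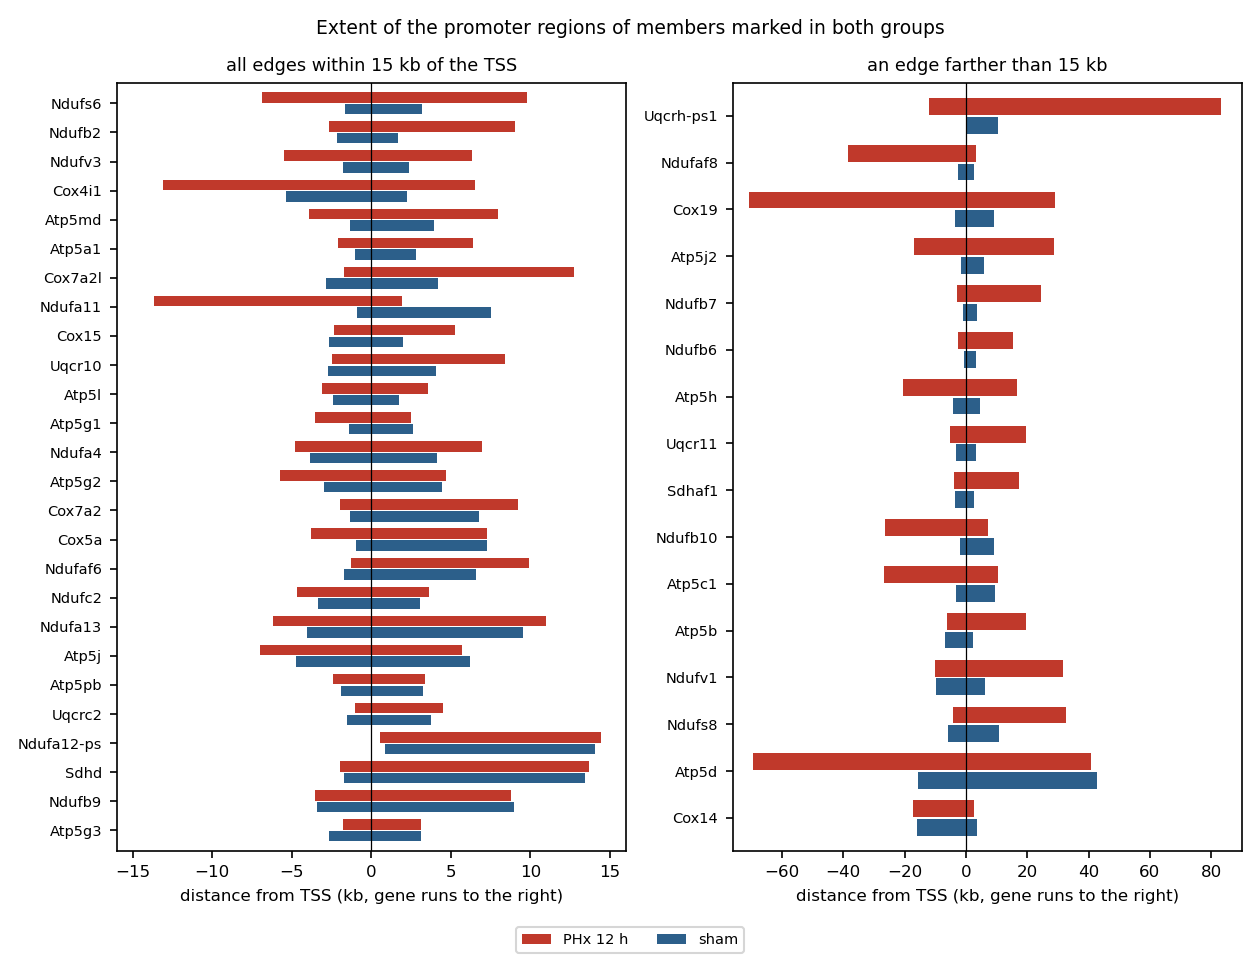
Extent of the region (x axis, kb from the TSS, downstream to the right) of each of the 42 members marked in both lists, PHx 12 h above sham, ordered by width ratio within a panel; the left panel holds members with all edges within 15 kb. Ndufa11 shows the shift upstream, and the regions of Ndufa12-ps and the sham region of Uqcrh-ps1 begin downstream of the TSS.

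The libraries of the PHx 12 h group did not contribute alike at members. In 12 of 45 marked members (26.7%) library 2 had more peaks inside the region than library 1, and the reverse held in 1, whereas over all PHx 12 h regions library 2 had more in 11.9% and library 1 in 2.49%. All regions include distal ones, and the share over promoter regions of protein-coding genes was not computed. The difference is therefore not read as a trait of members. In sham, library 2 had more in 3 of 49 members and library 1 in 4, beside 4.98% and 7.09% of all sham regions. A region with 1 peak of each library was found at 30 of 45 members (66.7%) in PHx 12 h and at 42 of 49 (85.7%) in sham. Over all regions the shares were 84.5% in PHx 12 h and 86.5% in sham. At Atp5d and at Ndufv1, 1 peak of library 1 stood beside 3 peaks of library 2. The part of either library in the widths was not tested.

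Of 86 other genes of oxidative phosphorylation listed by role, 45 had a listed TSS, of which 31 were marked in both lists, 7 in PHx 12 h only, 4 in sham only and 3 in neither. The median ratio of the 31 was 1.80. Assembly factors under other names had 0 of 15 in PHx 12 h only and 4 in sham only, beside 15.4% and 9.79% of protein-coding names. With so few genes these counts are descriptions of the list. The 4 were Acad9 (5554 bp) of complex I, Bcs1l (4833 bp) of complex III, Taco1 (4265 bp), a translation activator for complex IV, and Atpaf1 (4684 bp) of ATP synthase. Its partner Atpaf2 had 24205 bp in PHx 12 h and 4394 bp in sham, Higd2a 26202 bp in PHx 12 h and 4386 bp in sham, and Foxred1 21723 bp in PHx 12 h and 4178 bp in sham.

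Coenzyme Q is the electron carrier between complexes I, II and III. Of the genes listed for its synthesis and function, 4 of 8 were in PHx 12 h only and 0 in sham only. Among protein-coding names these shares were the 15.4% and 9.79% given above. The 4 were Coq2 (15337 bp), the prenyltransferase, Coq3 (8268 bp), a methyltransferase, Coq4 (19548 bp) and Coq10a (9988 bp), which is not a synthesis enzyme. Coq8a, a kinase-like protein of the pathway, had 74777 bp in PHx 12 h and 35863 bp in sham. Other genes of the list in PHx 12 h only were Sqor (32019 bp), a sulphide oxidase that reduces coenzyme Q, the ADP/ATP carrier Slc25a5 (5538 bp) and Polg (12747 bp), the mitochondrial DNA polymerase. The phosphate carrier Slc25a3 had 26519 bp in PHx 12 h and 4495 bp in sham, a ratio of 5.90, and Cyc1, the haem subunit of complex III that the naming rule misses, 18615 bp in PHx 12 h and 13954 bp in sham.

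Of the nuclear regulators of these genes, 7 of 10 were marked in both lists, a share near the 66.0% of all protein-coding names. Nrf1, whose word was searched above, had 8481 bp in PHx 12 h and 6691 bp in sham. Yy1 had 16456 bp in PHx 12 h and 9131 bp in sham. Tfam, which packages mitochondrial DNA and acts in its transcription, had 8521 bp in PHx 12 h and 2768 bp in sham. Ppargc1a, the coactivator PGC-1 alpha, and Polrmt, the mitochondrial RNA polymerase, had no region at the listed TSS in either list. The ratio was below 1 at Etfa (9380 bp in PHx 12 h and 11297 bp in sham, 0.830), a subunit of the electron transfer flavoprotein, and at Coa7 (0.969), and was 1.03 at the uncoupling protein gene Ucp2.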

How the data were processed

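H3K27ac CUT&Tag regions of 4 liver libraries were analysed, 2 after hepatectomy and 2 after sham operation. Tools in the submitters' processing notes are Bowtie2, SEACR, ChIPseeker and DiffBind, without versions or roles, and the build is GRCm39 (mm39). The caller's thresholds are unknown here. The authors deposited 1 table per group with, per the file headers, the start, end, width (bp), annotation and assigned gene of each merged region, and the joined peaks of both libraries.

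The tables were read with pandas 2.3.3 in Python 3.11.15. A gene was marked when a region overlapped its most upstream listed TSS ± 1 kb, the nearest region being taken where several did. Regions overlapped from 1 bp. Shares have exact Clopper-Pearson 95% intervals (scipy 1.17.1), for counting error only. Biotypes and promoter sequences came from RefSeq tables of GRCm38.p6, matched by symbol, with no coordinates carried between builds. The region lookup was checked on simulated regions.

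Members and lists were chosen with earlier results of these data known. Every member could be named; given in full were those in 1 list or neither, the 3 largest and 3 smallest ratios and the widest regions of each complex, and paired isoforms of complex IV. Of other pathway genes, those in 1 list only and the 3 largest and 3 smallest ratios were named by rule; Foxred1, Coq8a, Nrf1, Yy1, Tfam, Cyc1, Ppargc1a and Polrmt were added after their values were seen.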

Additional observations from a re-analysis of the deposited data

How the results depend on the processing

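The width ratio of the 42 members stayed above 1 under every alternative that gave one, with medians from 1.40 to 2.06. Of 71 alternative values 7 moved, by over 1.5 times for a count, and none turned the direction of the ratio. Restricting members to regions that pair 1 to 1 left 27 marked in both, 24 of them wider in PHx 12 h, with a median ratio of 1.40; by construction this drops regions that joined neighbours. Leaving out regions under 5000 bp gave 12 members in PHx 12 h only, which is largely built in because sham regions are the narrower. Counting only regions named for the member gave 16 in sham only. Among protein-coding genes these settings gave 1656 in PHx 12 h only and 455 in sham only, and 1065 in PHx 12 h only and 1352 in sham only. Without stretches holding missing peak numbers of the other group, 0 members were in PHx 12 h only and 2 in sham only (Cox4i2 and Ndufa4l2). That setting was not run over all protein-coding genes. A window of 0 bp, 500 bp or 3 kb, any listed start, and protein-coding names only changed no count by over 1.5 times. Keeping regions of at most 50 kb, chosen after seeing the data, gave a median ratio of 1.85. No paired analysis was possible because the tables hold no values per library, and leaving out a replicate was not run for the same reason. Depth is unknown, so a region missing from a list may lie below the caller's threshold there.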

Other observations

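Core subunits of the chain that mitochondrial DNA encodes fall outside the naming rule, but both tables list 3 regions on that DNA. The region named for ND1 measured 5087 bp in PHx 12 h and 4970 bp in sham, that named for ND5 2566 bp in PHx 12 h and 2527 bp in sham, and that named for TrnP 1448 bp in PHx 12 h and 1489 bp in sham. Mitochondrial DNA is not packaged in histones. Nuclear regions were wider in PHx 12 h at 39 of 42 members, beside 91.4% of protein-coding genes marked in both lists. The 3 mitochondrial regions are given as a description and are not a control for the nuclear widths. Among the 13 members with a head-to-head neighbour, 12 were marked in both lists and none in 1 list only, with a median width ratio of 1.62; among the 29 without one, 23 were marked in both, 2 in PHx 12 h only and 4 in sham only, with a median ratio of 2.56. This split was looked at after the values were seen and is given as a description. It was not made over all protein-coding names with a listed TSS, of which 66.0% were marked in both lists. Regions that spanned several sham regions, where the larger ratio is largely built in, were not separated in it.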
